A study of Mus musculus with 2 samples.

Results

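The genes described here are 46 cell cycle genes of the mouse, taken by symbol from the 33207 genes counted in each of 2 single-cell libraries. They fall into 23 genes of the G2 and M phases, 16 genes of the G1/S transition and S phase, and the 3 D cyclins. The other 4 are inhibitors of cyclin-dependent kinases, a kind of gene linked to withdrawal from the cycle. All 46 were found in the counts, and each is a protein-coding gene in GENCODE. They were chosen by name and not by a measured value, though with earlier results of these data known. On GRCm39, the build of the counts, *Cdk1* lies at chr10:69170976-69236595 (minus strand), *Mcm5* at chr8:75836140-75856231 (plus strand), *Ccnd2* at chr6:127102125-127129156 (minus strand) and *Cdkn1a* at chr17:29309936-29319701 (plus strand), each read here as the UMIs of the whole gene.

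The libraries hold traced cells from mice that carry *Egr2-Cre* and *R26-Tomato*, taken at E11.5 and a day later at E12.5. They were dissected with the meninges, the dorsal root ganglia and the nerve roots, and sorted for Tomato fluorescence. *Egr2* is active in boundary cap cells, neural crest derivatives at the entry and exit points of spinal nerves, and a cell that has once expressed Cre stays Tomato-positive together with all its descendants. Embryos of 1 litter were pooled for each stage, which gave 1 library per stage, so the sample size is 1 and stage, litter and library cannot be told apart. There is therefore no test between stages or between cell classes, and every interval given is a 95% exact interval that covers counting error only. Intervals of levels and ratios rest on UMIs summed over cells and leave out the spread between cells.

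A proliferating cell copies its DNA in S phase, condenses and separates its chromosomes in M phase, and passes a control point in G1 at which D cyclins with their kinases release E2F transcription factors. E2F then switches on genes of DNA replication, while genes of mitosis are switched on later, in G2, largely through promoters that carry a cell cycle homology region and CCAAT boxes. In sensory ganglia, glial progenitors keep dividing, whereas neurons leave the cycle as they differentiate, and inhibitors such as *Cdkn1a* and *Cdkn1b* hold them out of it.

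To show how the S and G2/M groups differ in sequence, promoters of 38 of the 46 genes were read from RefSeq (GRCm38.p6), 42 windows in all, each from 250 bases before the transcription start to 50 bases after it. Entries for *Ccna2*, *Aurkb*, *Tpx2*, *Mcm4*, *Gins2*, *Ccne2*, *Ccnd1* and *Ccnd2* were not matched. Searched on both strands were TTTGAA, the core of the cell cycle homology region, CCAAT, and 4 E2F forms, TTTCGCGC, TTTGGCGC, TTTCCCGC and TTTGCCGC. The 250 bases before the start are shown for *Cdk1* (chr10:69352913-69353162, minus strand) and *Cdc20* (chr4:118437344-118437593, minus strand) of the G2/M group, *Mcm5* (chr8:75109259-75109508, plus strand) and *Cdc6* (chr11:98907901-98908150, plus strand) of the S group, and *Cdkn1b* (chr6:134920151-134920400, plus strand) of the inhibitors, with matches on either strand in capitals, so that a CCAAT on the other strand reads ATTGG:
Cdk1: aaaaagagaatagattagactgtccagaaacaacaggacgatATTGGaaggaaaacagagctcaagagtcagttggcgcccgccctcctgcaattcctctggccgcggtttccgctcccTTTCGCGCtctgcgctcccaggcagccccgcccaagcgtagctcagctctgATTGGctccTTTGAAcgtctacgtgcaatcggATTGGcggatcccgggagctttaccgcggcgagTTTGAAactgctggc
Cdc20: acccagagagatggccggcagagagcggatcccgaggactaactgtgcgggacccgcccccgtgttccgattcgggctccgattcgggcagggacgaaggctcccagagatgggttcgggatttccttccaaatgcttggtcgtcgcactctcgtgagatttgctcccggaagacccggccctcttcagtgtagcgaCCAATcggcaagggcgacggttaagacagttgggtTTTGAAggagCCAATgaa
Mcm5: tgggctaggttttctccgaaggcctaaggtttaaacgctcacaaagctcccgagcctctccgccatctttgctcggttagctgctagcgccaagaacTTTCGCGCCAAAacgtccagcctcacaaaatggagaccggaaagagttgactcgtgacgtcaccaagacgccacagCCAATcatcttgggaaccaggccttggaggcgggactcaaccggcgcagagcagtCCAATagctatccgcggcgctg
Cdc6: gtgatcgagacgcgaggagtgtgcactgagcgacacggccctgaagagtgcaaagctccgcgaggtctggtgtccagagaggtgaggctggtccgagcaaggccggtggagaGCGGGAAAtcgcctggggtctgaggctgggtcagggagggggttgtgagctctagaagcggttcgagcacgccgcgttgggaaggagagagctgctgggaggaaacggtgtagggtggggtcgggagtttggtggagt
Cdkn1b: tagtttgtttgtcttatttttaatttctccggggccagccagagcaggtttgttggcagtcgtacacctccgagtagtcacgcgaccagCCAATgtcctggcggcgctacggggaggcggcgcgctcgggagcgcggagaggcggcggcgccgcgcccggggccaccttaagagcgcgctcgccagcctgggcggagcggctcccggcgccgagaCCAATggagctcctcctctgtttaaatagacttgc
*Cdk1*, the kinase that starts mitosis, and *Cdc20*, which activates the anaphase-promoting complex, carry TTTGAA close to the start with CCAAT nearby. *Cdk1* also holds TTTCGCGC, the only E2F form found among the G2/M promoters. *Mcm5*, a subunit of the replicative helicase, carries TTTCGCGC and the reverse complement of TTTGGCGC, which overlap each other, beside CCAAT, and *Cdc6*, which loads that helicase, carries the reverse complement of TTTCCCGC alone. *Cdkn1b* carries CCAAT and neither of the other kinds.

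Over the whole groups, TTTGAA was in 15 of 20 G2/M promoters (75%), in 1 of 14 S promoters (7.14%) and in 0 of 6 inhibitor promoters, against 17.9% of 32851 promoters of all genes. TTTGAA and CCAAT stood together in 14 of 20 G2/M promoters (70%), against 6.95% of all promoters. An E2F form was in 6 of 14 S promoters (42.9%) and in 1 of 20 G2/M promoters (5%), against 2.26% of all. CCAAT on its own separated the groups less, with 85% of G2/M, 64.3% of S and 50% of inhibitor promoters, against 37.4% of all. These are matches of letters in a window and say nothing about what binds there.

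After the study's filters 833 cells were kept at E11.5, with a median of 11601 unique molecular identifiers (UMIs, the counted RNA molecules) per cell, and 3496 at E12.5, with a median of 6140. These filters cover mitochondrial share, UMIs and doublet score. The study went on to extract cells of the boundary cap lineage, a step not repeated here, so the kept cells are not its final set. The libraries share 9 barcodes, of which 7 were kept in both. Cells were placed by the transcripts of 2 genes, *Sox10*, which marks neural crest and glia, and *Isl1*, which marks sensory and autonomic neurons. Cells with *Sox10* and no *Isl1* UMI (Sox10-only) numbered 413 at E11.5 and then 1213 at E12.5, cells with *Isl1* and no *Sox10* UMI (Isl1-only) numbered 203 and 1337, and cells with UMIs of both (Sox10/Isl1) numbered 104 and 286. Another 113 and 660 cells had neither. Summed glial markers reached 3493 CPM (the UMIs of the genes in 1000000 UMIs of the class) at E11.5 and then 6182 at E12.5 in Sox10-only cells, against 544 and 659 in Isl1-only cells. Summed neuronal markers were at 376 and 419 CPM in Sox10-only cells, against 8366 and 10392 in Isl1-only cells. Both samples are labelled as boundary cap cells. *Prss56*, a marker of that population, was detected in 16.3% and 15.4% of kept cells, and 24.4% and 38.2% were Isl1-only, so the label covers cells of several kinds.

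In the plain classes, which share cells, 20.1% and 19.1% of *Sox10*-positive cells also had an *Isl1* UMI. G2/M genes summed to 3283 CPM in *Sox10*-positive, 3703 CPM in *Prss56*-positive, 2677 CPM in *Neurog1*-positive and 2135 CPM in *Isl1*-positive cells at E11.5, and to 3033, 3128, 2351 and 1240 CPM at E12.5. S genes summed to 1634, 1656, 1037 and 794 CPM at E11.5 and to 1273, 1359, 740.5 and 498 CPM at E12.5. The 4 inhibitors were higher in the *Neurog1*-positive and *Isl1*-positive than in the other classes, at 68.3, 69.1, 119 and 134 CPM at E11.5 and at 83.8, 85.4, 125 and 165 CPM at E12.5. Since the shared cells pull these values together, the comparisons that follow use classes without shared cells.

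G2/M genes were higher in Sox10-only than in Isl1-only cells at each stage, for 23 of 23 genes. Their summed level was 3239 CPM (interval 3189 to 3289) in Sox10-only and 1381 (1334 to 1430) in Isl1-only cells at E11.5, a ratio of 2.35, and 3095 (3056 to 3134) against 868 (849 to 887) at E12.5, a ratio of 3.57. A ratio of at least 2 with at least 100 UMIs over both classes was reached by 18 of 23 G2/M genes at E11.5, where 14.5% of 7658 genes reached it, and by 23 of 23 at E12.5, where 18.5% of 10415 did. The median ratio of the group was 2.35 and 3.97, while that of all genes was 1.09 and 1.08.

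*Mki67*, the chromosome-coating protein used as a general proliferation marker, was at 66.0 CPM in Sox10-only and 20.6 CPM in Isl1-only cells at E11.5, and at 61.2 and 23.1 CPM at E12.5. Its ratio of 3.20 (2.36 to 4.43) was the largest of the group at E11.5, and its ratio of 2.65 (2.25 to 3.13) was among the smaller ones at E12.5. *Top2a*, the topoisomerase that untangles replicated chromosomes, was at 312 and 132 CPM at E11.5 and at 254 and 68.8 CPM at E12.5, for ratios of 2.36 (2.09 to 2.68) and 3.69 (3.37 to 4.05). *Cdk1* was at 216 and 69.1 CPM and then at 201 and 42.4 CPM, for ratios of 3.13 (2.65 to 3.71) and 4.73 (4.23 to 5.31). For both genes the level at E12.5 was nearer to that at E11.5 in Sox10-only cells (0.816 and 0.930 times) than in Isl1-only cells (0.522 and 0.614 times). The smallest ratios belonged to *Tpx2*, a spindle assembly factor, at E11.5 (1.82) and to the spindle pole kinase *Aurka* at E12.5 (2.56), and the largest at E12.5 to *Kif23* (6.44), a kinesin of cytokinesis.

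**Figure D1:**
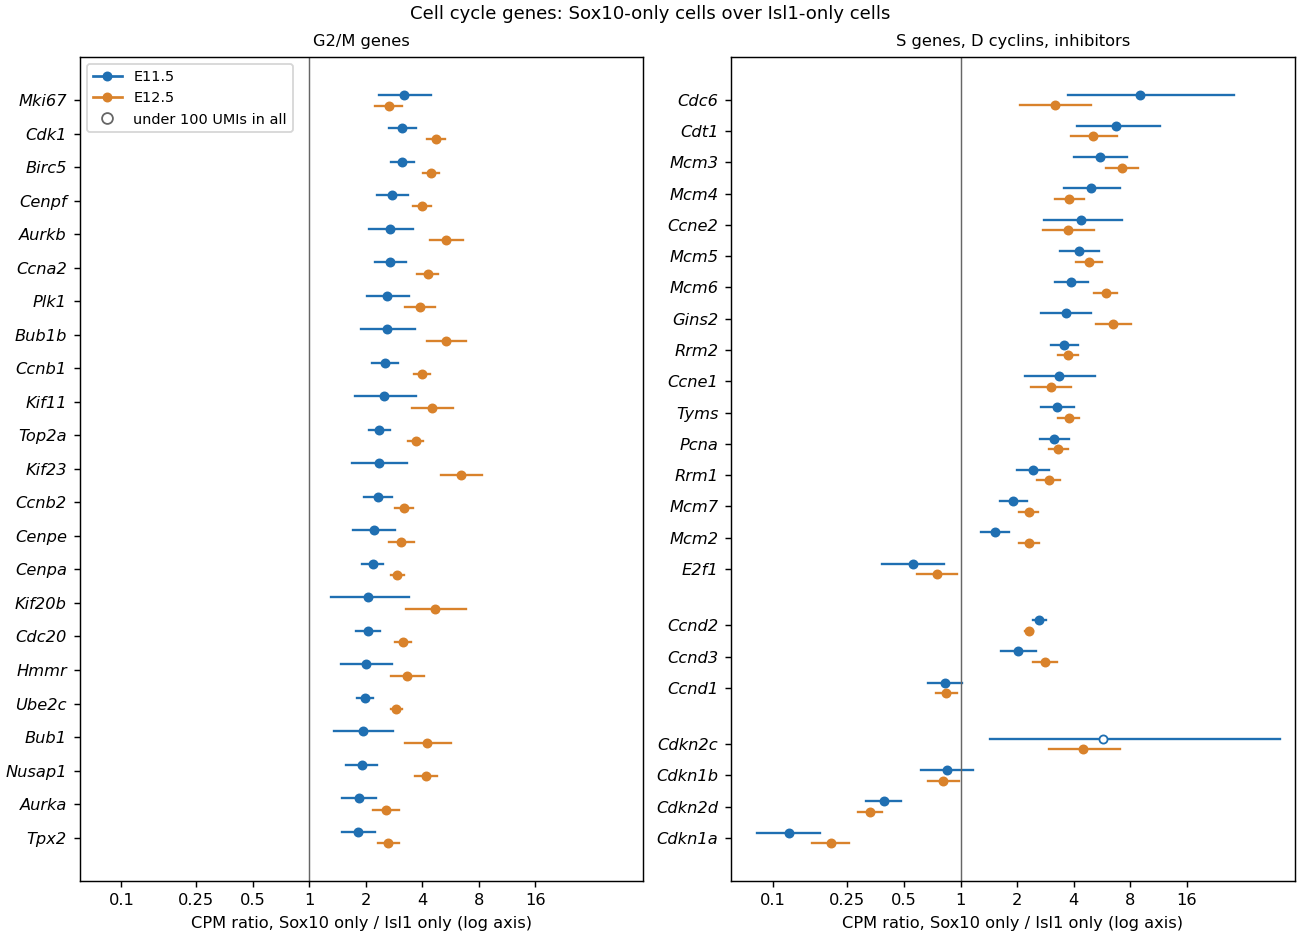
Ratio of CPM in Sox10-only cells to CPM in Isl1-only cells for each of the 46 genes on a log axis, with points for E11.5 and E12.5 and lines for 95% exact intervals of counting error. All 23 G2/M genes lie to the right of 1 at both stages, and *E2f1* (0.556 and 0.753), *Ccnd1*, *Cdkn1b*, *Cdkn2d* and *Cdkn1a* lie to the left; the open point has fewer than 100 UMIs over both classes.

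S genes were higher in Sox10-only cells too, for 15 of 16 genes at each stage. They summed to 1757 CPM (1720 to 1793) in Sox10-only and 581 (550 to 612) in Isl1-only cells at E11.5, and to 1346 (1321 to 1372) and 377 (365 to 390) at E12.5, ratios of 3.03 and 3.57. At least 2-fold were 13 and 15 of the 16, with median ratios of 3.59 and 3.74. *Pcna*, the sliding clamp of DNA polymerase, was at 198 CPM in Sox10-only and 62.7 CPM in Isl1-only cells at E11.5 and at 145 and 43.6 CPM at E12.5, ratios of 3.16 and 3.32. The largest ratio at E11.5 was that of *Cdc6*, with 19.4 and 2.15 CPM and a ratio of 9.02 (3.74 to 28.4) that rests on 5 UMIs in Isl1-only cells. At E12.5 it was that of *Mcm3*, a helicase subunit, with 99.9 and 13.8 CPM and a ratio of 7.23. The subunits of that helicase did not share a ratio, since *Mcm2* stood at 1.53 and 2.31 and *Mcm7* at 1.90 and 2.30.

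The exception among S genes was *E2f1*, the transcription factor at the head of the S program. It was at 12.6 CPM in Sox10-only and 22.8 CPM in Isl1-only cells at E11.5 and at 14.6 and 19.3 CPM at E12.5, ratios of 0.556 (0.380 to 0.815) and 0.753 (0.589 to 0.959). It was thus detected at a higher level in the class in which the other 15 S genes were lower. In plain *Sox10*-positive and *Isl1*-positive cells, which overlap, *E2f1* was at 12.7 and 19.1 CPM at E11.5 and at 15.4 and 19.2 CPM at E12.5.

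Further cell cycle genes that are not among the 46 were read from longer lists of the same kinds. Of further S genes with enough UMIs, 26 of 31 at E11.5 and then 26 of 32 at E12.5 were at least 2-fold higher in Sox10-only cells. *Ung*, which removes uracil from DNA, had the largest ratio at E11.5 (12.9) and *Dscc1*, of a clamp loader, at E12.5 (7.09). Of further G2/M genes, 14 of 28 and 22 of 30 were at least 2-fold higher, led by *Ckap2* (3.41) and *Gas2l3* (8.68), and *G2e3* was below 1 at both stages (0.690 and 0.829). Among further kinases and E2F factors, 8 of 12 and 9 of 15 were at least 2-fold higher. *Cdk6*, a partner of D cyclins, was at 109 and 9.45 CPM at E11.5 and at 134 and 10.7 CPM at E12.5, the largest ratios of that list (11.54 and 12.51). Its relative *Cdk4* was at a ratio of 0.996 and 1.05, and *Mycn* was 1.97-fold and 3.88-fold higher in Isl1-only cells.

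The 3 D cyclins, which couple growth signals to the G1 kinases, differed from each other. *Ccnd2* was at 781 CPM in Sox10-only, 697 CPM in Sox10/Isl1 and 297 CPM in Isl1-only cells at E11.5, and at 570, 555 and 247 CPM at E12.5. The step lay between Sox10/Isl1 and Isl1-only cells, where the ratio was 0.426 and 0.445, while that between Sox10-only and Sox10/Isl1 cells was 0.893 and 0.973. *Ccnd3* was at 91.5, 44.2 and 45.1 CPM in the same 3 classes at E11.5 and at 78.9, 50.2 and 28.0 CPM at E12.5. For *Ccnd3* the lower level was already present in Sox10/Isl1 cells, with ratios to Sox10-only cells of 0.483 (0.362 to 0.635) and 0.636 (0.514 to 0.781). *Ccnd1* was at 49.6, 51.7 and 60.1 CPM at E11.5 and at 49.4, 57.2 and 58.8 CPM at E12.5, and its interval for Sox10-only over Isl1-only cells held 1 at E11.5 (0.668 to 1.02) and lay just under 1 at E12.5 (0.736 to 0.960).

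Inhibitors were split as well. *Cdkn1a*, which binds and blocks cyclin-dependent kinases, was at 7.11 CPM in Sox10-only, 18.7 CPM in Sox10/Isl1 and 58.0 CPM in Isl1-only cells at E11.5, and at 12.1, 23.2 and 59.7 CPM at E12.5. It was 8.15-fold and 4.92-fold higher in Isl1-only than in Sox10-only cells. *Cdkn2d*, which blocks the kinases of the D cyclins, was at 31.6, 39.7 and 81.2 CPM at E11.5 and at 28.9, 48.8 and 87.3 CPM at E12.5, and was 2.57-fold and 3.02-fold higher in Isl1-only cells. These genes were the 2 of 3 inhibitors with enough UMIs at E11.5 and the 2 of 4 at E12.5 that were at least 2-fold higher in Isl1-only cells, where 8.4% and 11.6% of all genes were.

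*Cdkn1b*, a close relative of *Cdkn1a*, was at 22.5 CPM in Sox10-only and 26.6 CPM in Isl1-only cells at E11.5 and at 24.5 and 30.3 CPM at E12.5, so it was 1.18-fold and 1.23-fold higher in Isl1-only cells. In Sox10/Isl1 cells it was at 10.5 and 18.1 CPM, with 14 and 39 UMIs, and at ratios to Sox10-only cells of 0.466 (0.247 to 0.814) and 0.739 (0.510 to 1.05). *Cdkn2c*, of the same family as *Cdkn2d*, went the other way, with 13.9 CPM in Sox10-only and 3.09 CPM in Isl1-only cells at E12.5, a ratio of 4.5 (2.95 to 7.08). At E11.5 it was at 4.94 and 0.859 CPM with only 27 UMIs in all.

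Among other genes linked to cell cycle exit, 5 of 8 at E11.5 and then 5 of 10 at E12.5 were at least 2-fold higher in Isl1-only cells. *Gadd45g*, a growth arrest gene, was at 20.5 and 486 CPM at E11.5 and at 42.7 and 303 CPM at E12.5, 23.7-fold and 7.11-fold higher in Isl1-only cells. *Cdkn1c*, the third inhibitor of the *Cdkn1a* family, was at 104 and 1207 CPM at E11.5 and at 123 and 1348 CPM at E12.5, 11.61-fold and 10.97-fold higher. *Rbl1*, a pocket protein that also belongs to this list, was higher in Sox10-only cells at E12.5 (16.99 and 3.09 CPM, ratio 5.49).

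**Figure D2:**
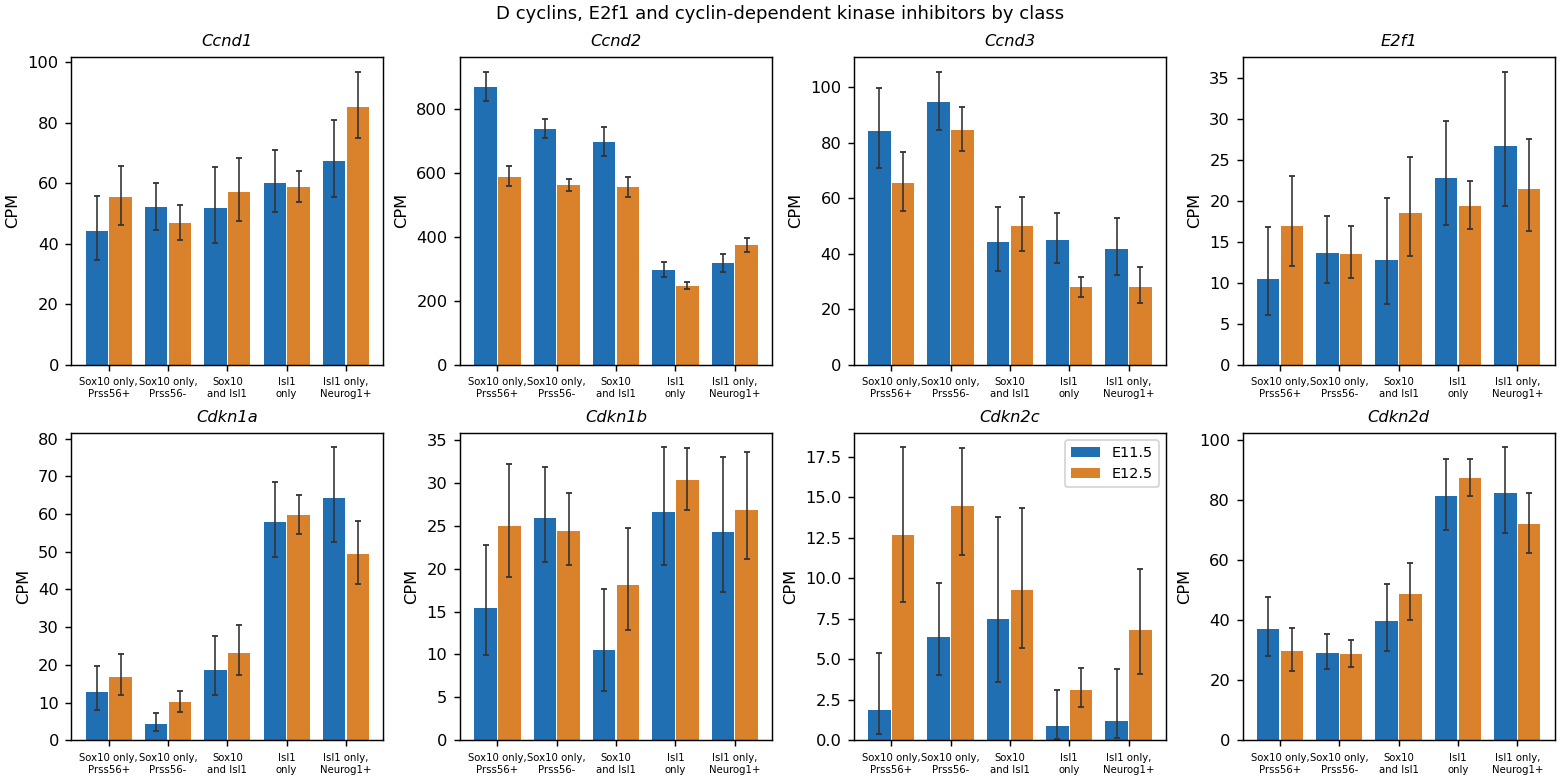
CPM of the 3 D cyclins, *E2f1* and the 4 inhibitors in Sox10-only cells with and without *Prss56*, in Sox10/Isl1 cells, in Isl1-only cells and in the *Neurog1*-positive cells among the latter, as bars from 0 with 95% exact Poisson intervals, at E11.5 and E12.5. *Ccnd2* drops to 297 and 247 CPM in Isl1-only cells, where *Cdkn1a* stands at 58.0 and 59.7 CPM.

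In cells with both *Sox10* and *Isl1* transcripts, summed S genes differed more from Sox10-only cells than summed G2/M genes did. G2/M genes summed to 3450 CPM (3351 to 3551) in Sox10/Isl1 cells against 3239 in Sox10-only cells at E11.5, a ratio of 1.07, and to 2807 (2737 to 2879) against 3095 at E12.5, a ratio of 0.907. S genes summed to 1167 CPM (1110 to 1227) against 1757 at E11.5, a ratio of 0.664, and to 1006 (965 to 1050) against 1346 at E12.5, a ratio of 0.748. The S level was therefore lower at both stages, while the G2/M level was slightly above that of Sox10-only cells at E11.5 and slightly below it at E12.5.

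By gene, S genes were lower in Sox10/Isl1 than in Sox10-only cells for 15 of 15 with enough UMIs at E11.5 and then 15 of 16 at E12.5, with median ratios of 0.600 and 0.706. The median ratio of G2/M genes was 1.01 and 0.903, and that of all genes was 0.941 and 0.950. At least 2-fold lower were 4 S genes at E11.5 and then 1 at E12.5, where 5.64% and 4.34% of all genes were, and 0 of 23 G2/M genes at either stage. The 4 S genes were *Cdt1*, a helicase loader (17.2 and 52.0 CPM, ratio 0.332), *Ccne2*, a cyclin of the S phase kinase (17.2 and 39.3 CPM, 0.438), *Cdc6* (8.99 and 19.4 CPM, 0.464) and *Gins2*, of the active helicase (37.5 and 77.8 CPM, 0.481). At E12.5 their ratios were 0.560 for *Cdt1*, 0.450 for *Ccne2*, 0.856 for *Cdc6* and 0.606 for *Gins2*. *Pcna* was at 116 CPM in Sox10/Isl1 cells at both stages, with ratios of 0.587 and 0.800. The smallest difference at E11.5 was that of *Rrm2*, a subunit of ribonucleotide reductase (ratio 0.819), and *E2f1* again went the other way at E12.5 (1.28, 0.868 to 1.85).

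Further S genes that are not among the 46 were lower in Sox10/Isl1 cells for 29 of 31 at E11.5 and then 32 of 32 at E12.5, with median ratios of 0.708 and 0.745, while further G2/M genes had medians of 0.986 and 0.901. In the G2/M group the ratios ran from 0.838 (*Bub1*, a kinase of the spindle checkpoint) to 1.39 (*Tpx2*) at E11.5 and from 0.710 (*Cdk1*) to 1.10 (*Tpx2*) at E12.5. *Mki67* was at 66.7 and 66.0 CPM at E11.5, a ratio of 1.01. Of the other exit genes with enough UMIs, 4 of 7 at E11.5 and then 4 of 10 at E12.5 were at least 2-fold higher in Sox10/Isl1 than in Sox10-only cells, where 3.01% and 3.33% of all genes were, and 0 were 2-fold lower. *Gadd45g* had the largest ratios (16.7 and 6.09) and *Cdkn1c* was at 4.31 and 5.33. *Rbl2*, a pocket protein, had the smallest ratio at E12.5 (0.693, 0.407 to 1.13), and the inhibitor *Cdkn1b*, as given above, was also below 1 at both stages.

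**Figure D3:**
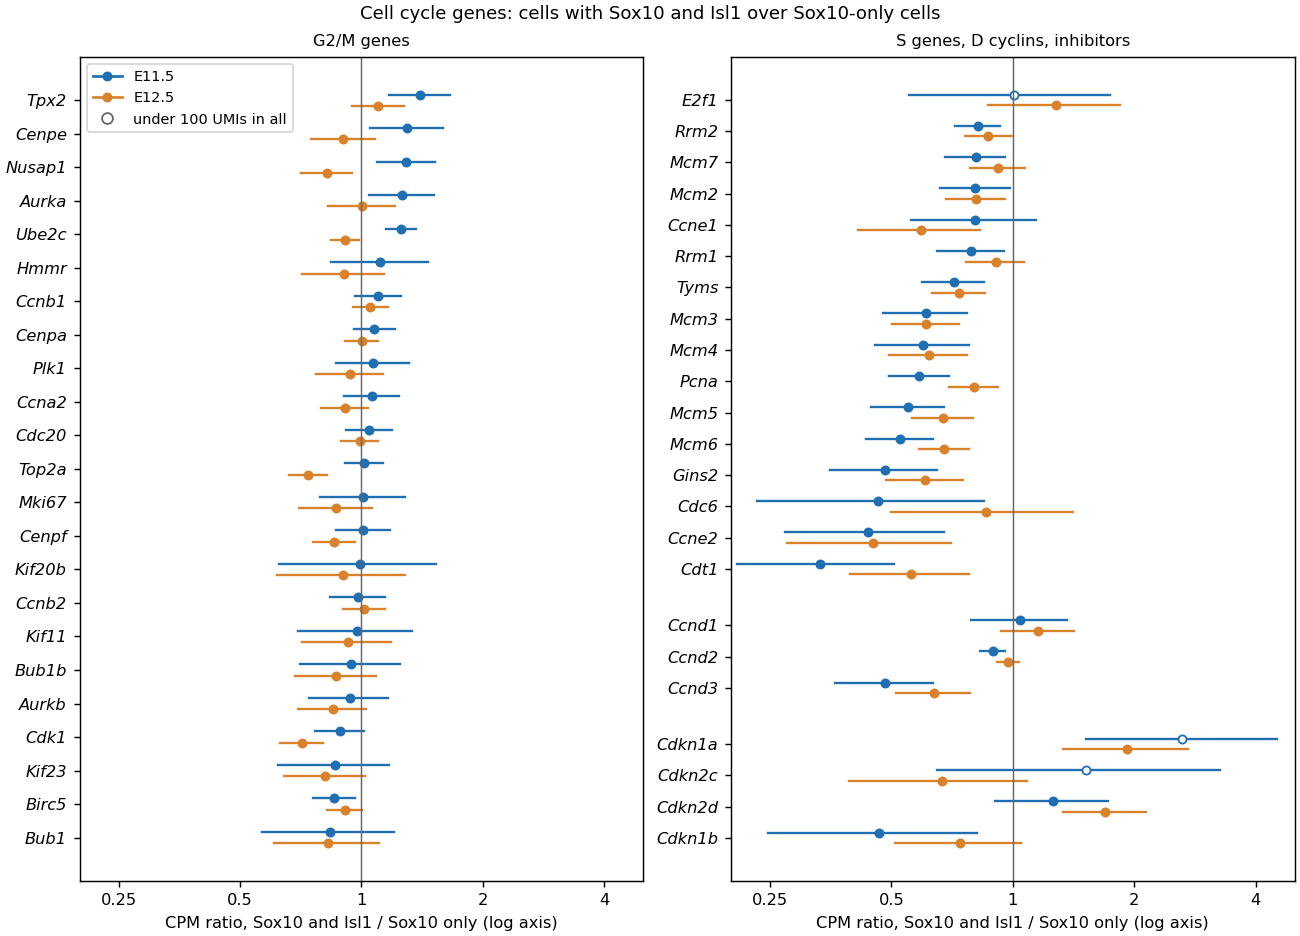
Ratio of CPM in Sox10/Isl1 cells to CPM in Sox10-only cells for each of the 46 genes on a log axis, with 95% exact intervals of counting error, at E11.5 and E12.5. G2/M genes spread around 1, between 0.710 and 1.39, while S genes other than *E2f1* lie to the left, down to 0.332 for *Cdt1* at E11.5; open points have fewer than 100 UMIs over both classes.

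Sox10/Isl1 cells had glial markers at 1963 and 3765 CPM and neuronal markers at 2454 and 3503 CPM, between the values of the other classes. Their median UMIs per cell were 13002 and 6869, against 12526 and 6088 in Sox10-only and 11595 and 6475 in Isl1-only cells. Another 7 and 67 barcodes with a high Scrublet doublet score had been left out, and the part of remaining doublets in this class was not tested.

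From Sox10/Isl1 to Isl1-only cells both groups were lower. G2/M genes were at least 2-fold lower in Isl1-only cells for 19 of 19 genes with enough UMIs at E11.5 and then 22 of 22 at E12.5, where 4.44% and 7.98% of all genes were, and the summed level had ratios of 0.4003 and 0.3092. The ratios ran from 0.309 (*Mki67*) to 0.465 (*Cdc20*) at E11.5, and the smallest at E12.5 was 0.191 (*Kif23*). S genes were at least 2-fold lower for 6 of 11 and 11 of 14, with summed ratios of 0.497 and 0.375. *Mcm3* had the smallest ratio at both stages (0.297 and 0.227), and *Mcm2* (0.811) at E11.5 and *E2f1* (1.04) at E12.5 the largest. *Cdkn1a* was 3.10-fold and 2.57-fold higher and *Cdkn2d* 2.04-fold and 1.79-fold higher in Isl1-only cells.

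*Prss56*, which encodes a serine protease, is a marker of boundary cap cells. *Prss56*-positive cells were mostly glial: 92.6% at E11.5 and 77.1% at E12.5 also had a *Sox10* UMI. To keep neurons out, *Prss56*-positive cells were compared with *Prss56*-negative cells among Sox10-only cells, 116 against 297 at E11.5 and 375 against 838 at E12.5. No S or G2/M gene reached a 2-fold difference at either stage, where 0.665% and 1.77% of all genes did in one direction or the other. G2/M genes summed to 3829 CPM in positive and 2960 CPM in negative cells at E11.5 (ratio 1.29, 1.25 to 1.33), and to 3275 and 3017 CPM at E12.5 (1.09, 1.06 to 1.12). S genes summed to 1627 and 1818 CPM at E11.5 (0.895, 0.855 to 0.937) and to 1369 and 1336 CPM at E12.5 (1.02, 0.983 to 1.07).

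Thus 21 of 23 G2/M genes at E11.5 and then 19 of 23 at E12.5 were higher in *Prss56*-positive cells, against an all-gene median of 1.01 at both stages. Of the S genes, 12 of 14 were lower at E11.5 and 10 of 15 were higher at E12.5. The G2/M count at E12.5 rests on how a positive cell is defined, because it was 2 of 23 when positivity was read after each cell was thinned to 2000 UMIs. Shares of cells went against the levels at that stage, with UMIs of at least 2 G2/M genes in 53.6% of positive and 58.2% of negative cells. *Prss56* itself was at 118 CPM in Sox10-only cells of E12.5 with at least 2 G2/M but not 2 S genes, and at 270 CPM with neither. It was at 179 CPM with both and 185 CPM with S genes only. No order in G2/M genes by *Prss56* is therefore read from the levels or the shares at E12.5. *Ccnb1*, the mitotic cyclin, had the largest ratio at E11.5, at 287 and 163 CPM (1.76, 1.56 to 1.997), and *Bub1* the smallest (0.884, 0.618 to 1.25). At E12.5 *Bub1* had the largest, at 41.0 and 27.5 CPM (1.49, 1.14 to 1.94), and *Kif20b*, a kinesin, the smallest (0.756, 0.513 to 1.09).

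*Ccne1*, the cyclin of S phase entry, was lower in *Prss56*-positive cells at both stages, at 24.0 and 43.3 CPM at E11.5 (0.555, 0.379 to 0.793) and at 24.5 and 34.4 CPM at E12.5 (0.712, 0.521 to 0.960). *Rrm1*, the other reductase subunit, had the largest S ratio at E11.5 (1.15), and *E2f1* the largest at E12.5 (1.25). *Ccnd2* was at 870 and 738 CPM at E11.5 and 589 and 562 CPM at E12.5, *Ccnd3* at 84.4 and 94.8 CPM and then 65.5 and 84.8 CPM. *Ccnd1* was at ratios of 0.852 and 1.18, with intervals that held 1. *Cdkn1b* was at 15.4 CPM in positive and 25.9 CPM in negative cells at E11.5 (0.595, 0.366 to 0.936) and at 24.9 and 24.3 CPM at E12.5 (1.02). *Cdkn1a* was at 12.9 and 4.36 CPM and at 16.9 and 10.1 CPM on 36 and 95 UMIs, and *Cdkn2d* was at ratios of 1.27 and 1.04. *Cdkn2c* had 25 UMIs at E11.5 and a ratio of 0.876 at E12.5. Glial markers in positive against negative cells were at 3517 and 3482 CPM at E11.5 and at 5149 and 6631 CPM at E12.5. Mesenchymal markers in positive against negative cells were at 80.1 and 56.4 CPM at E11.5 and at 234 and 188 CPM at E12.5. Median UMIs per cell were 13756.5 in positive and 11913 in negative cells at E11.5, and 5698 and 6221.5 at E12.5. The part of these markers and of the UMIs per cell in the differences by *Prss56* was not tested.

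*Neurog1*, the proneural transcription factor of sensory neurons, was detected in 281 cells at E11.5 and then 644 at E12.5, and these cells span both marker classes. A *Sox10* UMI was found in 48.0% and 27.0% of them and an *Isl1* UMI in 72.6% and 78.0%. They divide into 70 and 87 Sox10-only cells, 65 and 87 Sox10/Isl1 cells, 139 and 415 Isl1-only cells, and 7 and 55 cells with neither. In the *Neurog1*-positive cells G2/M genes summed to 3440 CPM in Sox10-only, 3746 CPM in Sox10/Isl1 and 1673 CPM in Isl1-only cells at E11.5, and to 4261, 3178 and 1770 CPM at E12.5. S genes summed to 1654, 1147 and 608 CPM at E11.5 and to 1314, 957 and 518 CPM at E12.5.

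S genes were lower already in Sox10/Isl1 cells at both stages (ratios 0.693 and 0.728), whereas G2/M genes were at a ratio of 1.09 at E11.5 and then 0.746 at E12.5. The S ratios depend on the cells taken as positive. With 2 or more UMIs needed they were 0.857 and 0.935, and with positivity read after thinning they were 0.465 and 1.08. At E11.5 *Mcm5* had the smallest S ratio (0.392) and *Rrm2* the largest (1.07), and at E12.5 *Mcm6* (0.497) and *Rrm2* (1.03). Among G2/M genes *Tpx2* had the largest ratio at both stages (1.41 and 0.992), *Birc5*, a chromosomal passenger protein, the smallest at E11.5 (0.837) and *Cdk1* the smallest at E12.5 (0.517). *Ccnd1* had 25.3 CPM in Sox10-only and 55.1 CPM in Sox10/Isl1 cells at E11.5 and 25.6 and 69.1 CPM at E12.5, on fewer than 100 UMIs. From Sox10/Isl1 to Isl1-only cells, all 18 G2/M genes and all 8 S genes with enough UMIs were lower at each stage. The summed ratios were 0.447 and 0.557 for G2/M and 0.531 and 0.541 for S genes. The share of all genes that were lower in this comparison is not given here, so the counts have no background.

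**Figure D4:**
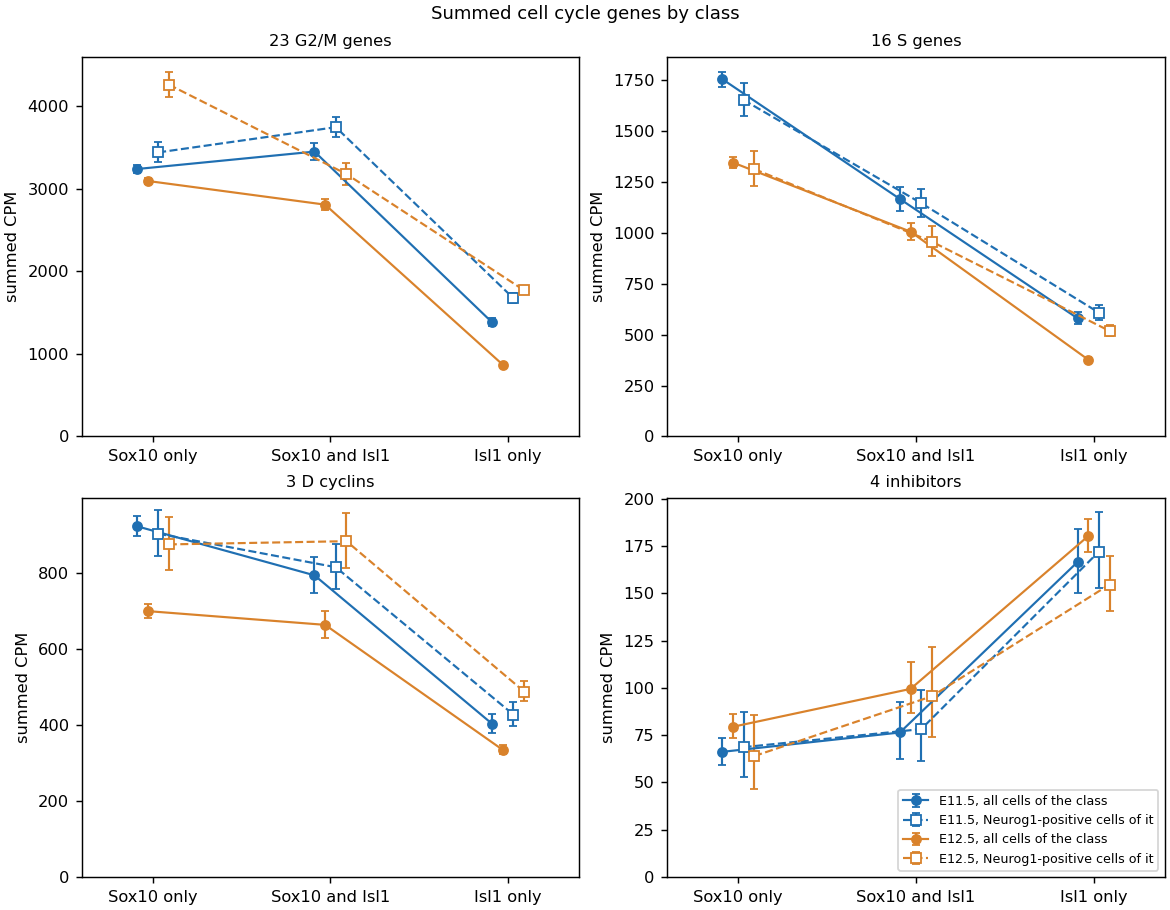
Summed CPM of the 4 groups of genes in Sox10-only, Sox10/Isl1 and Isl1-only cells, as filled points for all cells of the class and open squares for its *Neurog1*-positive cells, with 95% exact Poisson intervals, at E11.5 and E12.5. In all cells of the classes at E11.5, S genes step down from 1757 to 1167 to 581 CPM, G2/M genes are at 3239, 3450 and 1381 CPM, and the inhibitors at 66.2, 76.4 and 167 CPM. At E12.5 S genes are at 1346, 1006 and 377 CPM and G2/M genes at 3095, 2807 and 868 CPM.

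Within Sox10-only cells, *Neurog1*-positive cells had more G2/M transcripts than *Neurog1*-negative cells, with 3440 and 3192 CPM at E11.5 (1.08, 1.04 to 1.12) and 4261 and 2980 CPM at E12.5 (1.43, 1.38 to 1.49). By gene 19 and 22 of 23 were higher, against all-gene medians of 0.970 and 0.966. *Ube2c*, of the anaphase-promoting machinery, was at 632 and 372 CPM at E12.5, the largest ratio there (1.70), and *Cenpf*, a kinetochore protein, had the largest at E11.5 (1.35). *Cdc20* (0.854) and *Bub1* (0.941) had the smallest at E11.5 and E12.5. S genes were at summed ratios of 0.929 (0.879 to 0.981) and 0.974 (0.909 to 1.04). *Gins2* had the smallest S ratio at both stages (0.705 and 0.652), *Mcm7* the largest at E11.5 (1.17) and *E2f1* the largest at E12.5 (1.65, 0.909 to 2.82). *Ccnd1* was lower in *Neurog1*-positive cells at both stages, at 25.3 and 55.2 CPM (0.460, 0.288 to 0.701) and at 25.6 and 51.8 CPM (0.494, 0.289 to 0.792), while *Ccnd2* was at ratios of 1.04 and 1.45 and *Ccnd3* at 0.748 and 0.663. Glial markers in these positive and negative cells stood at 3451 and 3503 CPM at E11.5 and at 7165 and 6085 CPM at E12.5, and neuronal markers at 434 and 362 CPM and then 477 and 413 CPM. Mesenchymal markers were lower in positive cells, at 32.7 and 71.2 CPM at E11.5 and at 36.9 and 218 CPM at E12.5. Of the 6 genes, 5 and 3 were at 0 in positive cells. Positive cells also had more UMIs per cell, with medians of 14627.5 and 12264 at E11.5 and 7754 and 5924.5 at E12.5. The part of these markers and of the UMIs per cell in the G2/M difference was not tested.

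Within Isl1-only cells the ratio of the summed G2/M genes was larger. They summed to 1673 CPM in *Neurog1*-positive and 671 CPM in *Neurog1*-negative cells at E11.5 (2.50, 2.26 to 2.76) and to 1770 and 464 CPM at E12.5 (3.81, 3.64 to 3.99). At least 2-fold higher in positive cells were 10 of 13 G2/M genes with enough UMIs at E11.5 and then 17 of 18 at E12.5, where 1.69% and 1.5% of all genes were. With each cell weighted equally the count at E11.5 was 5, and with a minimum of 20 UMIs it was 19. Thinned shares of cells with at least 2 G2/M genes, 28.8% and 29.7%, went against the levels at E11.5, so no order is read from them, and were 25.4% and 9.71% at E12.5. *Top2a* was at 167 and 45.7 CPM at E11.5 (3.66) and at 150 and 32.5 CPM at E12.5 (4.62). *Cdk1* was at 85.4 CPM in positive cells at both stages and at 29.5 and 23.2 CPM in negative cells. *Nusap1*, a spindle protein, had the largest ratio at E11.5 (4.71) and *Hmmr*, another, at E12.5 (5.52), and *Ccnb2* (1.19) and *Mki67* (1.56) had the smallest.

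S genes had summed ratios of 1.19 and 1.65. The largest were those of *Tyms*, which makes thymidylate, at E11.5 (57.6 and 28.0 CPM, 2.06) and of *Rrm2* at E12.5 (81.8 and 19.7 CPM, 4.16). *Pcna* was at 63.0 and 61.9 CPM at E11.5, a ratio of 1.02, and at 52.9 and 39.5 CPM at E12.5, a ratio of 1.34. *Mcm6* (0.922) and *Mcm2* (1.08) had the smallest S ratios. *Ccnd1* was higher in *Neurog1*-positive cells here (1.57 and 1.82), which is opposite to its ratio in Sox10-only cells. *Cdkn1a* and *Cdkn2d* were lower in positive cells at E12.5, at 49.3 and 64.3 CPM (0.767, 0.627 to 0.932) and at 71.8 and 94.2 CPM (0.762, 0.646 to 0.896). At E11.5 their ratios were 1.503 (0.989 to 2.35) and 1.05 (0.763 to 1.48). Neuronal markers stood at 7438 and 10625 CPM in these positive and negative cells at E11.5 and at 6956 and 11930 CPM at E12.5, while pericyte markers were at 12.7 and 158 CPM at E11.5 and erythroid markers at 6.79 and 825 CPM at E12.5, and their part in the difference was not tested.

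Shares of cells were set on 1 scale by drawing 2000 UMIs from each cell, which left out 165 kept cells of E12.5, 38 of them Sox10-only and 46 Isl1-only. UMIs of at least 2 different G2/M genes were then found in 78.2% (73.9 to 82.1) of 413 Sox10-only cells and 29.1% (22.9 to 35.8) of 203 Isl1-only cells at E11.5, and in 56.8% (53.9 to 59.6) of 1175 and 14.6% (12.8 to 16.7) of 1291 at E12.5. Without thinning the shares were 96.6% and 64.5% at E11.5 and 73.8% and 32.2% at E12.5. For S genes the thinned shares were 72.9% and 24.1%, then 56.1% and 14.8%. The order of the classes was the same with and without thinning, and the shares were higher without it.

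Many Sox10-only cells had both kinds of transcript. At E11.5, 57.9% had UMIs of at least 2 S and at least 2 G2/M genes, 15.0% of S genes only, 20.3% of G2/M genes only and 6.78% of neither. At E12.5 the shares were 33.1%, 22.98%, 23.7% and 20.3%. Sox10/Isl1 cells had S genes alone in 6.73% and 17.4% of cells, G2/M genes alone in 26.0% and 26.2%, and neither in 22.1% and 32.6%. Of Isl1-only cells, 61.6% and 76.3% had neither. Such a class is a range set by a minimum of 2 genes and is not by itself a sign of a phase, and the part of free RNA in it was not tested.

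**Figure D5:**
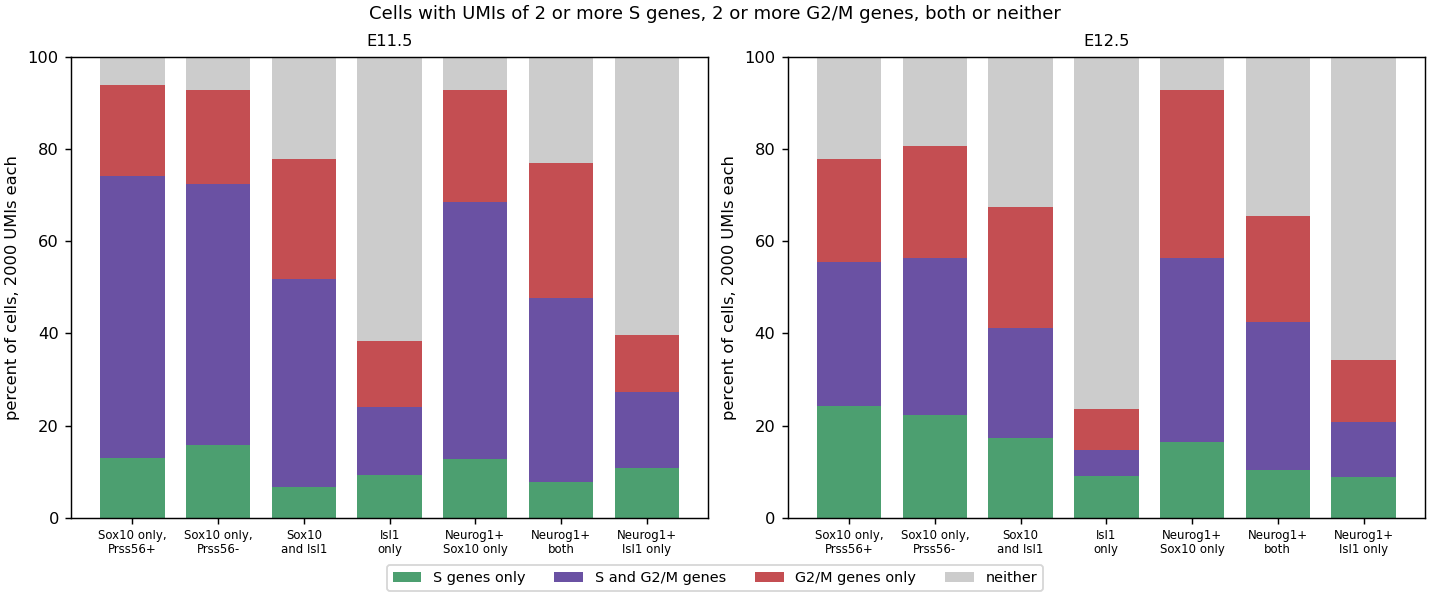
Percent of cells, each thinned to 2000 UMIs, with UMIs of at least 2 S genes, at least 2 G2/M genes, both or neither, stacked for 7 classes of cells at E11.5 and E12.5. Cells with neither make up 6.78% and 20.3% of all Sox10-only cells, shown here divided by *Prss56*, and 61.6% and 76.3% of Isl1-only cells.

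In Isl1-only cells G2/M transcripts were concentrated in few cells. The tenth of cells with the most G2/M UMIs held 59.9% of them at E11.5 and then 80.7% at E12.5, against 28.6% and 37.7% in Sox10-only cells. For S genes these shares were 45.3% and 49.6%, against 25.6% and 31.3%. At E12.5, 67.9% of thinned Isl1-only cells had no G2/M UMI at all, and the highest cell had 34 of 2000.

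Genes that did not define these ranges also differed between them. Among Isl1-only cells, those with S and G2/M genes (30 at E11.5 and then 74 at E12.5) had neuronal markers at 2697 and 2562 CPM, against 10522 and 11842 CPM in cells with neither (125 and 985). Their glial markers were at 922 and 1715 CPM against 395 and 460. The 4 inhibitors summed to 83.5 and 125 CPM against 191 and 192, and *Cdkn1a* alone to 5.97 and 26.0 CPM against 75.04 and 65.4. Its value of 5.97 CPM has an interval of 0.723 to 21.6. *Ccnd2* was at 427 and 424 CPM against 281 and 211. After thinning *Neurog1* was found in 56.7% and 24.3% of them, against 20.8% and 10.96%. The Isl1-only cells with S and G2/M transcripts together were thus low in neuronal markers and in *Cdkn1a* at both stages. Those with S genes only (19 and 117 cells) had neuronal markers at 6456 and 9427 CPM and *Cdkn1a* at 48.8 and 56.1 CPM. Those with G2/M genes only (29 and 115 cells) had 6018 and 4690 CPM and 42.6 and 36.2 CPM.

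Sox10/Isl1 cells divided in a similar way. Those with S and G2/M genes (47 and 67 cells) had neuronal markers at 1195 and 824 CPM and glial markers at 2166 and 4912 CPM, and those with neither (23 and 92 cells) had 7862 and 8150 CPM and 798 and 1503 CPM. *Cdkn1a* was at 5.40 and 14.2 CPM in the former and 58.9 and 40.1 CPM in the latter. Among Sox10-only cells glial markers ran from 3371 to 3850 CPM at E11.5 and from 5347 to 6504 CPM at E12.5 over the 4 ranges, and D cyclins were higher without G2/M transcripts. They summed to 1057 and 1170 CPM at E11.5 in cells with S genes only and with neither, against 892 and 861 CPM with both and with G2/M genes only, and to 869 and 807 against 633 and 603 CPM at E12.5. *Ccnd2* made up most of these sums, at 861 and 953 against 750.5 and 770.4 CPM at E11.5 and at 702 and 646 against 518 and 501 CPM at E12.5. *Ccnd1* was at a lower level and differed more in proportion, at 91.7 and 102 against 43.6 and 27.1 CPM, and at 84.0 and 79.0 against 30.4 and 33.8 CPM. The 4 inhibitors summed to 59.3 and 47.3 against 69.3 and 66.5 CPM at E11.5, with overlapping intervals. At E12.5 they summed to 44.2 and 51.2 against 95.5 and 97.1 CPM. Unlike in Isl1-only cells, the inhibitors were thus not lower in Sox10-only cells with S and G2/M transcripts. In the same order, these ranges held 62 and 28 against 239 and 84 cells at E11.5, and 270 and 238 against 389 and 278 at E12.5. Median UMIs per cell were 11584.5 and 8656.5 against 12933 and 13475.5, and then 5541 and 4719.5 against 7320 and 7226.5. The part of this in the D cyclin and inhibitor levels was not tested.

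Between the stages, S genes were lower at E12.5 than at E11.5 in Sox10-only cells for 15 of 16 genes, with a summed ratio of 0.766, while G2/M genes were lower for 12 of 23, with a summed ratio of 0.956. With 2 or more UMIs required for a positive cell the G2/M count was 7. None of them was 2-fold lower, where 0.891% of all genes were, and the median ratio of all genes was 1.06. *Rrm2* was at 266 CPM at E11.5 and then 145 CPM at E12.5, the lowest S ratio (0.546, 0.504 to 0.591), and *E2f1* had the highest (1.15, 0.841 to 1.59). *Aurka* (0.698) and *Kif23* (1.18) marked the ends of the G2/M group. *Ccnd2* was at a ratio of 0.731 (0.700 to 0.763), *Cdkn1a* at 1.71 (1.15 to 2.58) and *Cdkn2c* at 2.82 (1.81 to 4.54).

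In Isl1-only cells G2/M genes were lower at E12.5 for 21 of 22 and S genes for 12 of 13, with summed ratios of 0.629 and 0.650, against a median of 1.04 for all genes. At least 2-fold lower were 4 of the 22, where 1.23% of all genes were: *Kif23* (0.433), *Bub1* (0.442), *Aurkb* (0.451) and *Bub1b* (0.492), the other 3 being genes of the spindle checkpoint and the chromosomal passenger complex. *Mki67* was the exception, at 20.6 and 23.1 CPM (1.12, 0.815 to 1.57). *Rrm2* had the lowest S ratio (0.521) and *Mcm4* the highest (1.15). The inhibitors did not follow, with a summed ratio of 1.08 (0.968 to 1.21) and *Cdkn1a* at 58.0 and 59.7 CPM. Neuronal markers in this class went from 8366 to 10392 CPM and erythroid markers from 17.6 to 572 CPM, and in Sox10-only cells glial markers went from 3493 to 6182 CPM and mesenchymal markers from 64.0 to 202 CPM, and their part in these differences was not tested. These levels belong to 1 litter and 1 library each, so the age of the embryos, the litter and the library cannot be told apart.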

How the data were processed

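Cells were captured with a 10x Genomics 3' kit, and the authors mapped the reads to mm39 and counted UMIs per gene with Cell Ranger (7.0 in the submitters' processing notes, 7.0.1 in the matrix header). The deposited values are raw UMI counts per gene and cell, with no normalization. Barcodes were kept at no more than 10% mitochondrial UMIs, with at least 2000 UMIs at E11.5 and then 1000 at E12.5, and with a Scrublet score under 0.2 (scanpy 1.11.5), after the study's filters. Barcodes removed for mitochondrial share, low UMIs and doublet score numbered 179, 412 and 7 at E11.5 and 66, 133 and 67 at E12.5. The libraries held 10287595 and 23460243 UMIs in 1431 and 3762 barcodes.

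A cell was positive for a gene with at least 1 UMI. Counts were summed per class, divided by the class total and given as CPM. Poisson intervals were used for levels, conditional binomial intervals for ratios and Clopper-Pearson intervals for shares, all exact at 95% (scipy 1.17.1, numpy 2.4.6). A gene was counted as different at a 2-fold ratio with at least 100 UMIs over both classes. For shares each cell was thinned without replacement to 2000 UMIs. With 1 library per stage no test was run. Ratio code was checked on simulated counts.

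*Mki67*, *Top2a*, *Cdk1*, *Pcna*, the D cyclins and the inhibitors were described by rule, together with the largest and smallest ratio of each group and members against their group's direction. Members, lists, rule and the alternative settings were chosen with earlier results of these data known. Gene positions came from GENCODE (GRCm39) and promoters from RefSeq (GRCm38.p6). Plots used matplotlib 3.10.9 and tables pandas 2.3.3.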

Additional observations from a re-analysis of the deposited data

Results flagged for a closer look

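For 6 comparisons of single genes the ratio lay on opposite sides of 1 at E11.5 and E12.5 with both counting intervals off 1. They were picked out from the comparisons of classes over the 46 genes. The share of all genes that meet the same rule is not given here, so this count has no background. The difference between the stages itself was not tested, and stage, litter and library cannot be told apart. *Ccna2*, the cyclin of S and G2, was at 1.23 times in *Prss56*-positive over *Prss56*-negative Sox10-only cells at E11.5 and at 0.873 times at E12.5. *Ube2c* was at 1.25 and 0.913 times in Sox10/Isl1 over Sox10-only cells, and *Nusap1* at 1.29 and 0.821 times. Among *Neurog1*-positive cells, *Cenpa*, the histone of the centromere, was at 1.24 and 0.727 times in Sox10/Isl1 over Sox10-only cells, and *Ube2c* at 1.201 and 0.700 times. *Ccne2* was at 0.206 times (0.0702 to 0.544) in *Neurog1*-positive over *Neurog1*-negative Isl1-only cells at E11.5, on 7 and 14 UMIs, and at 2.32 times (1.32 to 4.08) at E12.5, on 28 and 27 UMIs. Both counts are under the minimum of 100 UMIs used elsewhere.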

How the results depend on the processing

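With 13 alternatives preset, 14 settings were run in all. Of 190 group values recomputed, 168 stayed the same, 21 moved and 1 reversed. A count of genes was taken as the same within 1.5 times, and a ratio or share where the alternative lay within the interval of the reported value. Of 176 ratios of single genes, 169 stayed and 7 moved without changing direction. The ratio of S genes in *Neurog1*-positive Sox10/Isl1 over Sox10-only cells was 0.857 and 0.935 (E11.5 and E12.5) with 2 or more UMIs for a positive cell, and 0.465 and 1.08 with positivity read after thinning, a reversal at E12.5. The share of Sox10-only cells with G2/M genes at E12.5 was 62.3% with 2 or more UMIs and 61.0% with at least 4000 UMIs per cell. Shares in Sox10-only and Isl1-only cells were 60.3% and 22.2% at E11.5 and 43.8% and 10.8% at E12.5 when thinned to 1000 UMIs, 91.2% and 37.8%, then 72.4% and 22.9% when thinned to 4000, and 64.2% and 21.7%, then 46.7% and 10.4% with 3 or more genes. G2/M genes lower at E12.5 in Sox10-only cells numbered 7 with 2 or more UMIs in place of 12. Those higher in *Prss56*-positive cells at E12.5 numbered 2 after thinning in place of 19, so most were then not higher. That count is tallied among the values that moved, although its direction changed. G2/M genes at least 2-fold higher in *Neurog1*-positive Isl1-only cells at E11.5 numbered 5 with each cell weighted equally and 19 with a minimum of 20 UMIs, in place of 10. Beyond what the settings themselves change, the cause was not tested. No paired analysis was possible because each stage has 1 library, which also left no replicate to leave out. Intervals rest on counts of 1 library, so variation between litters is not measured, and genes under 100 UMIs are known only within wide intervals.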

Other observations

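Kept cells with neither a *Sox10* nor an *Isl1* UMI, 113 at E11.5 and 660 at E12.5, belong to none of the Sox10-only, Sox10/Isl1 and Isl1-only classes, and those of them with a *Prss56* or *Neurog1* UMI entered only the sums over all *Prss56*-positive or *Neurog1*-positive cells. Their glial markers summed to 1392 and 3457 CPM, the largest marker sum at both stages, and neuronal markers to 452 and 590 CPM. Pericyte markers summed to 1351 and 225 CPM and mesenchymal markers to 324 and 901 CPM. Myeloid markers summed to 4.9 and 601 CPM and endothelial markers to 410 and 106 CPM. G2/M genes summed to 2053 and 1681 CPM in these cells, S genes to 1357 and 1163 CPM, the D cyclins to 641 and 660 CPM and the 4 inhibitors to 116 and 75.9 CPM. *Neurog1*-positive cells among them, 7 and 55, had G2/M genes at 1900 and 1430 CPM and S genes at 1529 and 972 CPM.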
